A study of Mus musculus with 16 samples.

Results

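Cadherins, protocadherins, Eph receptors and ephrins are cell surface proteins by which cells stick to, avoid or recognise one another. Their genes were taken by symbol from a count table of neural tube organoids: Cdh with a number (Cdh6 was not taken), every Pcdh row, Epha and Ephb receptors, and Efna and Efnb ligands. This gave 114 of 35976 rows, of which 22 were cadherins, 70 protocadherins, 14 Eph receptors and 8 ephrins. The rule used gene names only, but it was set with earlier results of these data known.

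The study grew neural tube organoids, small self-organising cultures that form a neural epithelium, from mouse embryonic stem cells of the R1 line, and asked how genes differ with the level of FOXA2, the transcription factor of the floor plate at the ventral midline. All 16 samples carried a FOXA2-Venus reporter, were treated with retinoic acid (RA) for 18 hours and were collected on day 4. They fell into 4 groups, called gates here, by FOXA2 expression (negative, low, medium and high), with 4 libraries in each. How cells were separated is not in the labels, and neither is whether the numbered libraries of a gate come from different cultures; the p-values thus reflect a spread among libraries that may be technical. All samples come from 1 parental line, and no group lacks the reporter or the RA treatment.

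Classical cadherins bind the same cadherin on a neighbouring cell and are tied to actin through catenins, so that cells with like cadherins tend to stay together. E-cadherin (Cdh1) is typical of pluripotent cells and simple epithelia and N-cadherin (Cdh2) of the neural plate, and the exchange of the former for the latter accompanies neural induction in the embryo. Ephrins are membrane-bound ligands that signal to Eph receptor tyrosine kinases on touching cells, often by repulsion, and the pair keeps borders sharp between neural territories. Protocadherins are related proteins of weaker adhesion, of which a large group lies in gene clusters with many alternative first exons.

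RNA was measured by BRB-seq, a bulk method that counts reads near the 3′ ends of transcripts. Totals ran from 3268948 to 9961032 counts per library. Levels are given as CPM, the counts of a gene divided by the scaled library total and multiplied to a common total, and 1 count was worth 0.102 to 0.304 CPM. In bulk samples, fewer cells of a type and less RNA per cell cannot be told apart. Foxa2, which set the groups, lay between 1.63 and 5.26 CPM in the negative gate and between 100.5 and 139.6 in the high gate. Of the neural progenitor markers, Sox1 and Sox2 were listed at 0 in every library, while Pax6 was present (88.0 to 107 CPM in negative and 22.2 to 25.2 in high libraries). The annotated 3′ ends of Sox1 and Sox2 lie inside Sox1ot and Sox2ot on the same strand, and their zeros are not read as absence. Pluripotency genes were present, mainly in the negative gate, where the summed level of 8 markers was 519 to 922 CPM. Libraries low 1 and medium 2 lay apart from the others of their gates in an earlier description of these data, and results that rest on them are given with and without them.

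Rows at 0 in every library made up 59 of the 114. They were 58 clustered protocadherins, namely all 14 alpha, all 22 beta and all 22 gamma rows, and Cdh17, a cadherin of liver and intestine. A count of 0 allows up to 3 counts in a library, or 0.911 CPM in the shallowest, from counting error only. The clusters lie on the plus strand of chromosome 18 (GRCm38), the alpha genes at 36930184 to 37187661, the beta genes at 37264938 to 37524479 and the gamma genes at 37661793 to 37841873. The annotated 3′ end of all 55 protein-coding cluster genes matched in GENCODE M21 lies inside another gene of the same strand, such as the row Gm37013 (36952648 to 37841873), which was itself at 0. Among all protein-coding genes with such an end, 36.9% were at 0 (292 of 792), against 16.6% of the rest (3257 of 19646). Of the other members matched, Cdh15 alone had its end inside another gene (Gm20388), with 116 counts, and 1 of 55 without such an end was at 0. On the minus strand inside the region, Taf7, a general transcription factor subunit, had 11583 counts. The part of the counting rule in these zeros was not tested, and no level of a clustered protocadherin is read from them.

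**Figure D1:**
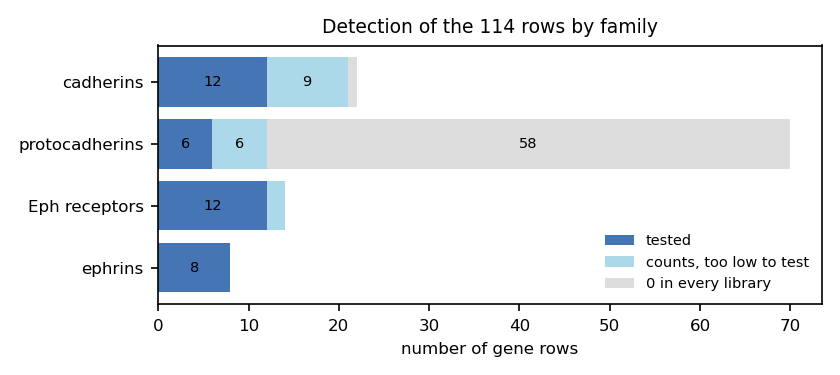
Number of gene rows by family (horizontal axis), split into rows tested, rows with counts too low to test and rows at 0 in every library. Of 70 protocadherin rows 58 were at 0, while all 8 ephrins and 12 of 14 Eph receptors were tested.

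Of the 55 rows with counts, 38 passed the filter on low counts: 12 cadherins, 6 protocadherins, 12 Eph receptors and all 8 ephrins. Each was tested with edgeR's quasi-likelihood test in a fit of all genes, and called where the p-value adjusted over all 13891 genes tested was under 0.05. In the high against the negative gate 14 of 38 members were called (36.8%), against 17% of all genes, 5 higher (8.42% of all genes were called higher) and 9 lower (8.55%). The median absolute log2 fold change of the 38 members was 0.72, against 0.26 for all genes. The 2 sets were not matched by level, and noise at low counts widens absolute changes. For the 6 tested protocadherins the median was 0.96, with 1 of them called. Of the members, 17 of 38 had no overlap between the 2 gates' libraries, against 21.6% of all genes. Fewer were called between nearer gates. Medium against negative had 5 members higher and 4 lower (4.24% and 4.22% of all genes, 8.46% together). Low against negative had 2 higher and 1 lower (1.47% and 2.29%, 3.76% together), and high against low 4 and 5 (3.79% and 3.08%, 6.87% together). Medium against low had 2 higher and 2 lower (0.49% and 0.223%, 0.713% together). High against medium had 0 higher and 2 lower (0.367% and 0.547%, 0.914% together); 4 members were higher at an unadjusted p under 0.05 and 2 by DESeq2, another count test. In all, 17 of 38 members (44.7%) were called in at least 1 of the 6 comparisons, against 19.9% of all genes. Without high 2 the counts of high against negative were 8 higher and 5 lower. Comparisons that share a gate share its 4 libraries.

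**Figure D2:**
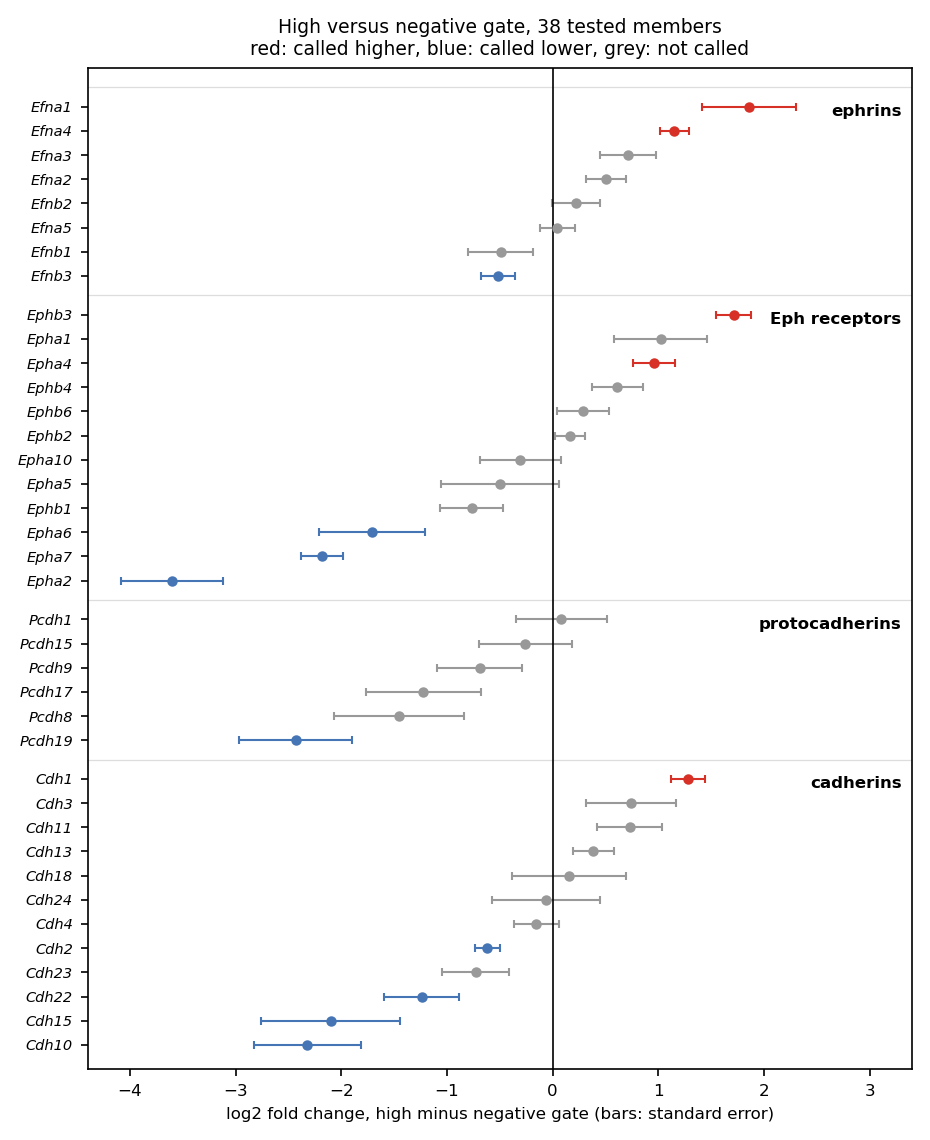
Log2 fold change of the high minus the negative gate (horizontal axis; bars are the standard error) for the 38 tested members, grouped by family and ordered by value. Red members were called higher, blue lower, and grey not called; Ephb3 and Efna1 stand furthest to the right among the called ones and Epha2 (-3.60) furthest to the left.

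Among the cadherins, Cdh1 was higher and Cdh2, Cdh10, Cdh15 and Cdh22 were lower in the high than in the negative gate, while Cdh11 was highest in the gates between. Cdh1 (E-cadherin; chromosome 8, 106603351 to 106670246, plus strand) was at 31.2, 36.9, 31.9 and 23.8 CPM in the negative, 27.5, 31.4, 25.5 and 20.4 in the low, 48.5, 66.8, 36.5 and 47.3 in the medium and 76.5, 76.7, 70.1 and 75.6 in the high gate. All 4 high libraries lay above all 12 others, the negative and low gates overlapped, and medium 3 fell within the range of the negative gate. The log2 fold change was 1.28 for high against negative (standard error, SE, 0.161, adjusted p = 7.0e-07) and 0.69 for medium against negative (SE 0.16, adjusted p = 0.00432). Against the low gate it was 0.93 in the medium gate (adjusted p = 0.00149) and 1.51 in the high gate (adjusted p = 1.03e-07).

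Cdh2 (N-cadherin; chromosome 18, 16588877 to 16809246, minus strand) went the other way. It was at 121, 103, 127 and 125 CPM in the negative, 147, 135, 132 and 133 in the low, 97.9, 128, 91.4 and 111 in the medium and 76.1, 71.9, 75.6 and 88.0 in the high gate. Each high library lay below every library of the other gates, and the low gate lay highest. For high against negative the change was -0.62 on the log2 scale (SE 0.115, adjusted p = 0.000231), and for high against low -0.82 (SE 0.115, adjusted p = 1.06e-05). High against medium (-0.46, adjusted p = 0.0441) lost its call when negative 3 or 4, low 2 or 3, medium 2 or 4, or high 1, 2 or 3 was left out (adjusted p from 0.0501 to 0.197), and without low 1 and medium 2 together (-0.38, adjusted p = 0.0548).

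The ratio of Cdh1 to Cdh2 CPM, followed here from library to library and not read as a difference in molecules between the 2 genes, was 0.19 to 0.357 in the negative gate and 0.153 to 0.232 in the low gate. It was 0.4 to 0.521 in the medium gate and 0.859 to 1.07 in the high gate. The medium and high gates each stood clear of the gates below, while negative and low overlapped. Beside this, markers that endoderm and other simple epithelia express moved in the same direction: of 5 tested genes of the endoderm list 4 were called higher in the high gate and 0 lower (4 and 1 at an unadjusted p under 0.05, 4 and 0 by DESeq2). The list's summed level was 119 to 142 CPM in negative libraries, 186 to 199 in low, 282 to 386 in medium and 454 to 474 in high ones, with none of its 8 genes at 0 throughout. Most of the endoderm sum was that of Epcam, Cldn6 and Sox17, which averaged 162, 148 and 134 CPM in the high gate. Ttr averaged 10.9 there, and Gata6, Afp and Cer1 2.43, 1.57 and 0.346. Gata4 averaged 3.96 in the negative and 2.13 in the high gate and was not called. Noto of the notochord list was at 0 in every library. Markers of that list summed to 182 to 207 and 373 to 489 CPM in the negative and high gates (5 of 5 tested higher). Most of that sum was keratin: in the high gate Krt18, Krt8 and Krt19 averaged 269, 99.6 and 46.4 CPM, against 7.07 for Chrd and 4.24 for T. Neural progenitor markers summed to 240.4 to 289 and 57.5 to 77.3 CPM, and 4 of 5 tested fell. Most of the negative gate's sum was Pax6, Hes5 and Nes, which averaged 95.1, 92.7 and 67.0 CPM there and 23.7, 19.0 and 24.2 in the high gate. Sox1 and Sox2, whose zeros are not read as absence, add nothing to it. Of 6 tested floor plate markers, among them Foxa2, 5 were called higher and 0 lower, likewise by DESeq2 and at an unadjusted p under 0.05. Without Foxa2, which set the groups, that list summed to 22.3 to 25.9 CPM in negative and 68.9 to 90.4 in high libraries. The part of these cell types in the cadherin values was not tested.

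**Figure D3:**
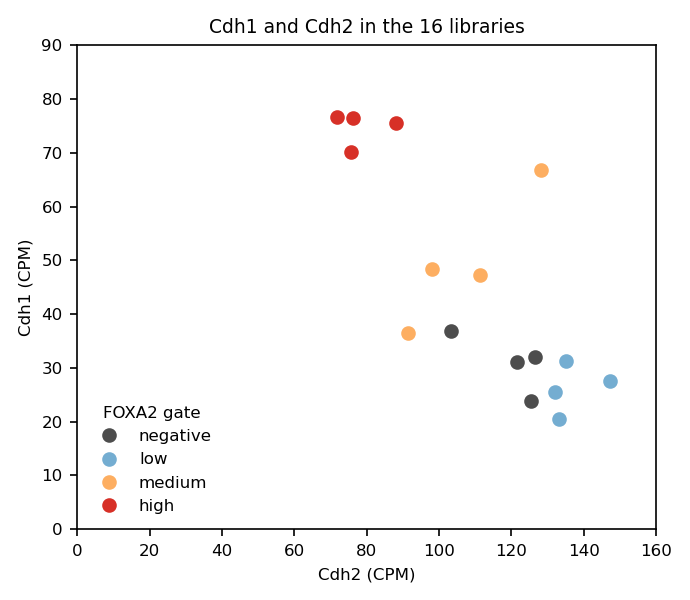
Cdh1 (vertical axis, CPM) against Cdh2 (horizontal axis, CPM) in the 16 libraries, 1 point each, coloured by FOXA2 gate. The 4 high libraries (Cdh1 70.1 to 76.7) form a group at the upper left, and the negative and low libraries lie along the bottom right.

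Cdh11, a cadherin of mesenchymal cells, was higher in the low and medium gates than in the negative gate. Its libraries were at 2.42, 2.60, 2.18 and 2.65 CPM in the negative, 5.30, 6.16, 7.04 and 4.34 in the low, 8.44, 7.07, 7.07 and 7.20 in the medium and 6.30, 3.03, 3.23 and 3.64 in the high gate. All low and medium libraries lay above all negative ones, and high 1 alone of the high gate lay within the range of the low gate. Against negative, its log2 fold change was 1.58 in the medium gate (SE 0.293, adjusted p = 0.000417), 1.20 in the low gate (SE 0.295, adjusted p = 0.0153) and 0.73 in the high gate (adjusted p = 0.111). The call in the low gate was lost without low 3 (1.09, adjusted p = 0.0632) and when every library was thinned to the smallest total (1.12, adjusted p = 0.102). High and medium were not called different. The mesoderm and mesenchyme list had summed levels of 23.6 to 34.8 CPM in negative libraries, 47.3 to 59.5 in low, 45.1 to 60.5 in medium and 24.2 to 39.5 in high ones, with 1 of its 5 tested genes called higher and 1 lower in medium against negative. The higher sum was that of 1 gene, Meox1, a homeobox gene of somites, at 13.5 to 16.5, 39.1 to 46.4, 35.7 to 50.2 and 18.4 to 29.2 CPM in negative, low, medium and high libraries. The rest of the list summed to 9.53 to 19.2, 8.25 to 16.7, 8.44 to 10.3 and 5.80 to 12.1 CPM and overlapped between these gates, and Col1a1, a fibrillar collagen, was the gene called lower. The part of this list in the Cdh11 values was not tested.

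Cdh10, Cdh22 and Cdh15 were low throughout and lowest in the high gate. Cdh10, a type II cadherin of neurons, was at 1.78, 3.12, 3.81 and 4.59 CPM in the negative, 2.02, 2.11, 3.24 and 2.31 in the low, 1.77, 0.987, 1.72 and 2.82 in the medium and 0.332, 0.757, 0.922 and 0.607 in the high gate. Each high library was below all others, and the log2 fold change against negative was -2.32 (SE 0.504, adjusted p = 0.00136). Against the low gate it was -1.86 (adjusted p = 0.0231), a call lost without low 3, high 1 or high 4 (adjusted p from 0.0522 to 0.103).

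Cdh22, another type II cadherin of the brain, was at 6.30, 5.02, 6.53 and 5.11 CPM in the negative, 5.68, 5.46, 8.73 and 6.22 in the low, 2.36, 3.29, 4.65 and 5.23 in the medium and 2.32, 0.757, 2.92 and 3.64 in the high gate. The high gate did not overlap the negative or low gate but overlapped the medium one. It fell by 1.24 on the log2 scale against negative (SE 0.351, adjusted p = 0.0133; without high 2, -0.98 and adjusted p = 0.0543) and by 1.43 against low (adjusted p = 0.00828). Cdh15, a cadherin of muscle precursors, was at 2.42, 1.04, 1.27 and 2.25 CPM in the negative, 1.89, 1.76, 1.41 and 0.434 in the low, 0.981, 0.987, 1.21 and 0.282 in the medium and 0.498, 0.252, 0.461 and 0.304 in the high gate. All high values lay below the limit that a count of 0 allows in the shallowest library. High against negative was -2.10 (SE 0.656, adjusted p = 0.0251), lost without negative 1, negative 4 or any 1 high library (adjusted p from 0.0509 to 0.0771) and with no filter on low counts (adjusted p = 0.0529). Because its 3′ end lies inside Gm20388 on the same strand, reads of the 2 genes may not be told apart. Neuron markers were lower in the high gate too: 4 of 5 tested were called lower and 0 higher against negative, by edgeR and by DESeq2 (4 and 0 at an unadjusted p under 0.05), among them Stmn2 (-1.70), Elavl3 (-1.19) and Tubb3 (-0.99). The list's summed level was 173 to 260.2 CPM in negative libraries, 118 to 174 in low, 123 to 133 in medium and 81.6 to 101 in high ones, with none of its 6 genes at 0 throughout. Neural progenitor markers were lowest in the high gate as well. They summed to 240.4 to 289 CPM in negative libraries, 245 to 311 in low, 146 to 180 in medium and 57.5 to 77.3 in high ones. The part of neurons or of neural progenitors in the Cdh10 and Cdh22 values was not tested.

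Cdh23, a long cadherin of hair cell tip links, was at 10.2, 9.87, 5.81 and 12.5 CPM in the negative, 4.93, 6.69, 3.38 and 8.54 in the low, 6.48, 2.30, 4.31 and 6.50 in the medium and 5.64, 4.29, 7.84 and 5.16 in the high gate. Every gate overlapped every other. Medium against negative passed narrowly (-0.98, SE 0.315, adjusted p = 0.0497), and the call was lost when negative 1, 2 or 4, low 1 or 2, medium 2 or 3, or 1 of the high libraries was left out (adjusted p from 0.0501 to 0.175). Without low 1 and medium 2 together it was -0.74 (adjusted p = 0.157), and in a fit of those 2 gates only -0.97 (adjusted p = 0.0656).

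The other 5 tested cadherins were called in no comparison. P-cadherin, Cdh3, averaged 2.10 CPM in the negative and 3.52 in the high gate (change 0.75 on the log2 scale, SE 0.426, adjusted p = 0.255). R-cadherin, Cdh4, averaged 17.2 and 15.5 CPM (-0.16, SE 0.211, adjusted p = 0.69), and Cdh13, which lacks the cytoplasmic tail, 16.7 and 22.1 (0.38, SE 0.194, adjusted p = 0.191). Cdh18 and Cdh24 averaged about 2 CPM in these 2 gates, with log2 fold changes of 0.15 and -0.06. A further 9 cadherins had 4 to 90 counts over all libraries and were not tested, among them Cdh5 of endothelium with 4.

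**Figure D4:**
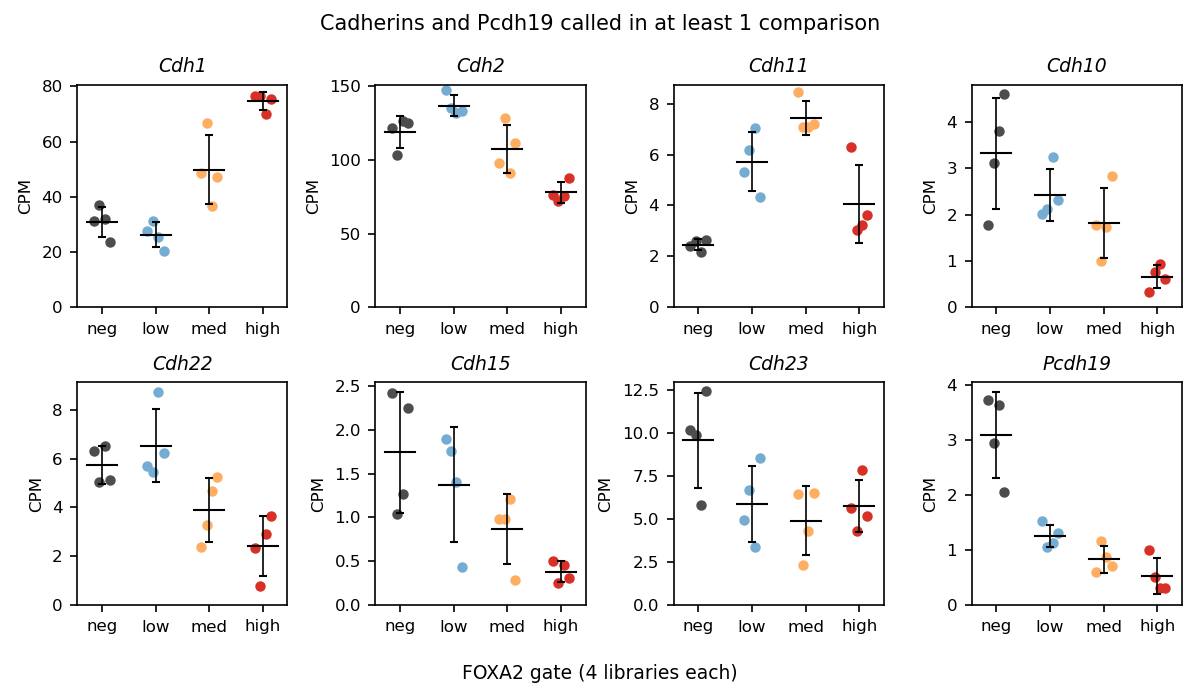
CPM (vertical axes) in each library by FOXA2 gate for the 7 cadherins and the 1 protocadherin called in at least 1 comparison; points are libraries, the line is the mean and the bar 1 SD (n = 4). Cdh1 is highest in the high gate, Cdh2 in the low gate and Cdh11 in the medium gate.

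Of the 6 tested protocadherins, none in a cluster, Pcdh19 was lower in the high and medium gates than in the negative gate, and the others were not called. Pcdh19, an X-linked protocadherin that forms complexes with N-cadherin, was at 3.72, 2.94, 3.63 and 2.04 CPM in the negative, 1.52, 1.06, 1.13 and 1.30 in the low, 0.589, 1.15, 0.862 and 0.706 in the medium and 0.995, 0.504, 0.307 and 0.304 in the high gate. Every negative library lay above every other library. Against negative the change was -2.43 for high (SE 0.537, adjusted p = 0.00162) and -1.85 for medium (SE 0.488, adjusted p = 0.0133). After thinning to the smallest total Pcdh19 did not pass the filter on low counts, and no protocadherin was called in high against negative. No protocadherin was called higher by edgeR or DESeq2, nor at an unadjusted p under 0.05, while 3 were lower at that unadjusted level.

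Pcdh8, known from the segmenting mesoderm, averaged 2.40 CPM in the negative gate and 0.905 in the high gate (-1.45, SE 0.614, adjusted p = 0.107). Pcdh17 averaged 2.81 and 1.15 (-1.22, SE 0.542, adjusted p = 0.127), and without high 1, at 2.65 CPM the highest of its gate, its value was -2.10 (adjusted p = 0.0261). Pcdh1 averaged 2.17 and 2.33 CPM (0.08, SE 0.428, adjusted p = 0.93). Pcdh9 (-0.69) and Pcdh15 (-0.26) were likewise not called. Pcdh7 had 27, 48, 27 and 16 counts in the negative, low, medium and high gates and Pcdh18 had 40, 21, 20 and 13, and neither was tested. The remaining 4 unclustered protocadherins with counts had 1 to 94 in all.

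Among the ephrins, which are the ligands, Efna1 and Efna4 were higher and Efnb3 lower in the high than in the negative gate. Efna4, held in the membrane by a lipid anchor like all A ephrins, was at 35.2, 23.7, 35.6 and 27.4 CPM in the negative, 43.1, 34.9, 41.1 and 41.8 in the low, 56.5, 51.6, 44.5 and 51.5 in the medium and 65.3, 74.4, 62.9 and 68.0 in the high gate. The medium and high gates stood clear of each other and of the gates below, and low 2 alone of the low gate fell within the range of the negative gate. The log2 fold change against negative was 1.15 in the high gate (SE 0.136, adjusted p = 2.56e-07) and 0.75 in the medium gate (SE 0.136, adjusted p = 0.000322). High against low was 0.75 (SE 0.134, adjusted p = 0.000323).

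Efna1, at a lower level, was at 1.45, 1.04, 1.45 and 1.33 CPM in the negative, 1.39, 2.47, 3.24 and 2.03 in the low, 3.14, 2.96, 1.72 and 3.11 in the medium and 3.98, 8.07, 1.84 and 6.07 in the high gate. No high library overlapped the negative gate, but high 3 lay within the range of the low and medium gates. High against negative was 1.86 (SE 0.442, adjusted p = 0.00323). Efna3 was at 6.30, 7.96, 6.35 and 6.94 CPM in the negative, 6.44, 10.9, 11.8 and 10.4 in the low, 9.23, 17.8, 11.0 and 9.89 in the medium and 13.4, 8.83, 15.2 and 6.68 in the high gate. All 4 medium libraries lay above the negative gate, but high 4 did not. Its value for high against negative was 0.72 (SE 0.263, adjusted p = 0.059), and it was under the threshold without low 1, medium 2, high 2 or high 4 (adjusted p from 0.0247 to 0.0497).

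Efna1, Efna3 and Efna4 are neighbours on the minus strand of chromosome 3 within 66.3 kb (GRCm38), at 89271733 to 89281142, 89313899 to 89322965 and 89333390 to 89338028. The sequences upstream of their starts are shown because these genes lie side by side and 2 of the 3 were called higher. They are from RefSeq (GRCm38.p6), at chr3:89281143-89281201, chr3:89322966-89323189 and chr3:89338029-89338278, on the minus strand, 5′ to 3′, with each CG dinucleotide in capitals, and end at the base before the first annotated start.
Efna1: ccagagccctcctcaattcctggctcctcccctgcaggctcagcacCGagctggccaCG
Efna3: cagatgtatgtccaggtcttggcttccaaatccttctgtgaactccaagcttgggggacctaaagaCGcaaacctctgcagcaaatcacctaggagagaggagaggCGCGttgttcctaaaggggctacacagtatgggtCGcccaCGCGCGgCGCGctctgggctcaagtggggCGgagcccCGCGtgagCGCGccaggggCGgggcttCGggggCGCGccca
Efna4: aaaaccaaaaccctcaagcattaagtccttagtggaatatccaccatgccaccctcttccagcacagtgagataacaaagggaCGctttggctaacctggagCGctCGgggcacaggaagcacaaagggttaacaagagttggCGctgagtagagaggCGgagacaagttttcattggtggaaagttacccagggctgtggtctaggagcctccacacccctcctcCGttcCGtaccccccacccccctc
The stretches differ in length because bases after a RefSeq or GENCODE start were left out, so their CG counts are not comparable. Efna1 has 2 CG in 59 bases, Efna3 has 18 in 224 and Efna4 has 7 in 250. In full RefSeq windows of 250 bases, Efna1 has 16 and 18 CG by start, Efna3 has 19 and 31, and Efna4 has 7.

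Efnb3, a transmembrane ephrin of the ventral midline of the spinal cord, was highest in the low gate. It was at 44.3, 44.2, 43.9 and 50.0 CPM in the negative, 73.4, 51.3, 51.4 and 69.2 in the low, 32.0, 35.0, 41.4 and 40.5 in the medium and 27.0, 27.5, 28.6 and 46.4 in the high gate. All low libraries lay above all others, and 3 of 4 high libraries lay below all others, while high 4 lay within the negative range. High against low was -0.94 (SE 0.16, adjusted p = 0.000165) and medium against low -0.72 (SE 0.156, adjusted p = 0.0173). The latter was lost without low 1, low 4 or medium 1 (adjusted p from 0.0793 to 0.0985), without low 1 and medium 2 together (-0.59, adjusted p = 0.157) and after thinning (adjusted p = 0.0553). High against negative was -0.51 (SE 0.161, adjusted p = 0.0259), lost without negative 4, high 1, high 2 or high 3 (adjusted p from 0.0775 to 0.108).

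Of the other ephrins, Efna2 averaged 16.0 CPM in the negative gate and 22.4 in the high gate (0.50, SE 0.19, adjusted p = 0.0674), and was under the threshold without negative 1, medium 2 or high 2 (adjusted p from 0.0232 to 0.0487). Efna5 averaged 50.3 and 52.2 CPM (0.05, SE 0.164, adjusted p = 0.897), and Efnb2, known from arteries and somites, 10.9 and 12.9 (0.22, SE 0.228, adjusted p = 0.582). Efnb1, whose human counterpart is mutated in craniofrontonasal syndrome, averaged 21.1 and 14.4 (-0.49, SE 0.311, adjusted p = 0.327). In the high gate its libraries were at 13.1, 10.3, 26.1 and 8.20 CPM, and without high 3 the value was -0.97 (adjusted p = 0.012).

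Among the Eph receptors, Epha4 and Ephb3 were higher and Epha2, Epha6 and Epha7 lower in the high than in the negative gate. Ephb3, a receptor for B ephrins, was at 15.2, 22.5, 15.6 and 18.2 CPM in the negative, 20.7, 37.2, 22.9 and 27.8 in the low, 37.9, 44.6, 44.8 and 45.3 in the medium and 57.9, 53.7, 54.6 and 68.9 in the high gate. The medium and high gates overlapped no other gate, and low 1 alone of the low gate lay within the negative range. The log2 fold change against negative was 1.71 in the high gate (SE 0.166, adjusted p = 5.14e-09), 1.27 in the medium gate (SE 0.165, adjusted p = 2.39e-06) and 0.60 in the low gate (SE 0.167, adjusted p = 0.0383). Against low it was 1.12 in the high gate (adjusted p = 1.45e-05) and 0.68 in the medium gate (adjusted p = 0.0341).

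The smaller steps of Ephb3 depended on single libraries. Low against negative was lost without negative 1, negative 3, negative 4, low 2 or low 4 (adjusted p from 0.0723 to 0.197), after thinning (0.55, adjusted p = 0.0971) and in a fit of those gates only (adjusted p = 0.0892). Medium against low was lost without low 1, low 3, low 4, medium 2, medium 3 or medium 4 (adjusted p from 0.0641 to 0.188), in a fit of those gates only (adjusted p = 0.0811) and without low 1 and medium 2 together (0.55, adjusted p = 0.212).

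Epha7, a receptor for A ephrins in the developing brain, fell as Ephb3 rose. It was at 35.1, 60.3, 43.7 and 35.7 CPM in the negative, 37.8, 52.8, 37.5 and 30.5 in the low, 16.3, 22.7, 18.1 and 17.7 in the medium and 8.46, 10.1, 11.5 and 7.89 in the high gate. Negative and low overlapped, while the medium gate and the high gate each stood clear of all others. It was called in 5 of 6 comparisons. The log2 fold change was -2.18 for high against negative (SE 0.201, adjusted p = 1.83e-09), -1.22 for medium against negative (SE 0.184, adjusted p = 2.48e-05) and -2.04 for high against low (adjusted p = 1.99e-08). Between neighbouring gates it was -1.08 for medium against low (adjusted p = 0.00117) and -0.96 for high against medium (adjusted p = 0.0127; without high 1 or high 4, adjusted p from 0.0566 to 0.0701).

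The sequences before the starts of Ephb3 and Epha7 are shown as those of the receptors with the smallest adjusted p in each direction (RefSeq, GRCm38.p6, chr16:21204545-21204754 and chr4:28812881-28813130, both on the plus strand, CG in capitals).
Ephb3: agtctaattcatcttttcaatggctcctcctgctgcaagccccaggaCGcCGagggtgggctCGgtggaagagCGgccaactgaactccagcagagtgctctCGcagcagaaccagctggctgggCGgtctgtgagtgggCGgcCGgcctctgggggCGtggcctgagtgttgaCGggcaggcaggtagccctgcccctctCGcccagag
Epha7: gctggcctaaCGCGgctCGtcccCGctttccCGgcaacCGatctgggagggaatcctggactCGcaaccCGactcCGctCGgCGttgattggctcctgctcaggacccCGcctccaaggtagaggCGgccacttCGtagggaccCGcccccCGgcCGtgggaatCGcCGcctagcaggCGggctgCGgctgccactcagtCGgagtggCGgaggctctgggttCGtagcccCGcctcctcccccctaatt
Epha7 has 25 CG dinucleotides in 250 bases. The stretch of Ephb3 was cut at the earlier start and has 11 in 210 bases, against 16 in its full window of 250. RefSeq windows of 250 bases before the start were found for 30 of the 38 tested members, 34 windows in all. None was found for Cdh1, Cdh2, Cdh3, Cdh4, Cdh11, Cdh13, Pcdh1 or Efnb3, so their promoters were not searched. The 34 windows had a median of 16.5 CG and 63.8% G or C, against 6 and 52.4% over all 32851 windows. The latter are of 27025 genes, whether tested here or not, and are no matched background. The letters CAGGTG on either strand, an E-box that Snail and Zeb factors bind, were found in 4 of the 34 windows (11.8%), those of Ephb2, Epha1, Efnb2 and Pcdh15, and in 17.2% of all windows. The forkhead core TGTTTAC on either strand was found in 0 of the 34 and in 3.17% of all. A match or its absence describes these letters in these windows only.

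Epha2, a receptor of pluripotent cells and epithelia, was highest in the negative gate. It was at 5.49, 19.4, 8.71 and 8.88 CPM there, 2.78, 4.58, 0.986 and 2.03 in the low, 1.18, 1.81, 0.862 and 1.98 in the medium and 1.33, 0.757, 0.615 and 0.607 in the high gate. Every negative library lay above every other one, with negative 2 the highest. The high gate held 17 counts in all, from 2 to 8 per library, so the size of its change is uncertain. Against negative the log2 fold change was -3.60 in the high gate (SE 0.482, adjusted p = 1.83e-06), -2.82 in the medium gate (SE 0.43, adjusted p = 2.79e-05) and -2.04 in the low gate (SE 0.399, adjusted p = 0.00148). The 7 tested pluripotency markers were called lower in all 3 of these comparisons, and their list's summed level was 519 to 922 CPM in negative libraries, 77.3 to 161 in low, 51.0 to 74.8 in medium and 43.5 to 77.7 in high ones, with none of its 8 genes at 0 throughout. The part of pluripotent cells in the Epha2 values was not tested.

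Epha4, known for sharp segment borders in the hindbrain, was at 41.2, 44.2, 62.1 and 36.9 CPM in the negative, 77.9, 76.6, 52.5 and 53.7 in the low, 70.9, 102, 60.0 and 54.1 in the medium and 96.9, 85.3, 75.6 and 99.3 in the high gate. The high gate lay above the negative gate throughout, and the low and medium gates overlapped both. High against negative was 0.96 (SE 0.196, adjusted p = 0.00148). Medium against negative was 0.65 (SE 0.195, adjusted p = 0.0427), and that call was lost without negative 1, negative 2, negative 4, medium 1, medium 2 or high 2 (adjusted p from 0.052 to 0.136), without low 1 and medium 2 together (0.43, adjusted p = 0.111) and in a fit of those gates only (adjusted p = 0.0528).

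Epha6 was at 1.94, 2.77, 1.82 and 4.08 CPM in the negative, 1.39, 1.23, 1.41 and 1.88 in the low, 1.37, 2.14, 2.24 and 1.13 in the medium and 0.829, 0.504, 0.769 and 1.21 in the high gate. The high libraries lay below the negative ones without overlap. High against negative was -1.71 (SE 0.5, adjusted p = 0.0166), lost without negative 4 or high 2 (adjusted p from 0.0507 to 0.0946). Epha1, a receptor of epithelia, was at 3.23, 1.21, 2.36 and 1.74 CPM in the negative, 0.379, 1.41, 0.845 and 1.74 in the low, 1.18, 1.81, 1.21 and 0.706 in the medium and 4.15, 4.54, 3.38 and 5.46 in the high gate. All high libraries lay above all others. High against low was 1.99 (SE 0.471, adjusted p = 0.0063), while high against negative was 1.02 (SE 0.44, adjusted p = 0.115).

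The other 6 tested receptors were called in no comparison. Ephb2, which binds B ephrins, averaged 42.4 CPM in the negative and 47.6 in the high gate (0.17, SE 0.139, adjusted p = 0.479). Ephb4, the partner of Efnb2 in vessels, averaged 6.61 and 10.1 CPM (0.61, SE 0.241, adjusted p = 0.0828; without high 2, 0.75 and adjusted p = 0.0396), and after thinning its adjusted p was 0.0401. Ephb1 averaged 6.76 and 3.95 CPM, with no overlap between the 2 gates (-0.77, SE 0.301, adjusted p = 0.0807). Epha5 was at 6.57 CPM in low 1 and 8.39 in medium 2, the libraries that stand apart, and at 0.911 to 3.99 in the other 14. Its value for high against negative was -0.50 (SE 0.558, adjusted p = 0.613). Ephb6 (0.29) and Epha10 (-0.30) were likewise not called, and Epha3 and Epha8, with 33 and 30 counts in all, were not tested.

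**Figure D5:**
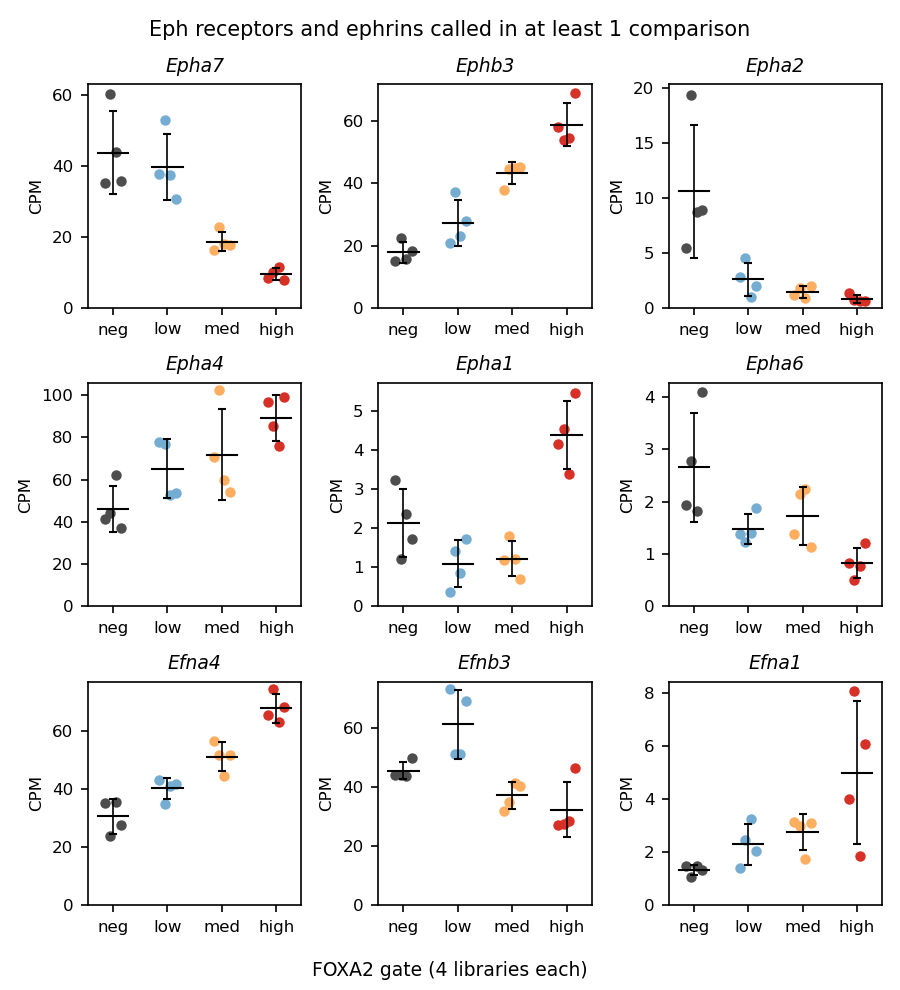
CPM (vertical axes) in each library by FOXA2 gate for the 6 Eph receptors and 3 ephrins called in at least 1 comparison; points are libraries, the line is the mean and the bar 1 SD (n = 4). Ephb3 and Efna4 are higher and Epha7 lower in each gate from low to high, Epha2 is highest in the negative gate and Efnb3 in the low gate.

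Across the members, gate means rose in the order negative, low, medium, high in 6 of 38 (15.8%, against 12% of all genes tested): Epha4, Ephb2, Ephb3, Ephb4, Efna1 and Efna4. They fell in that order in 8 (21.1%, against 11.4%): Cdh10, Cdh15, Pcdh8, Pcdh17, Pcdh19, Epha2, Epha7 and Ephb1. No ephrin was among the falling ones and no cadherin among the rising ones, and this ordering of means carries no test. Among all 13891 genes tested, the mean was highest in the low gate for 2965 and in the medium gate for 2304. Of the 38 members, it was highest in the low gate for 6 (Cdh2, Cdh22, Efna5, Efnb1, Efnb2 and Efnb3) and in the medium gate for 7. Of the 6, Efnb3 was called higher in the low gate than in both the medium and the high gate, Cdh2 and Cdh22 than in the high gate, and none than in the negative gate.

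Genes that work with these families were read from lists, in high against negative. In that comparison 8.42% of all genes were called higher and 8.55% lower. Of 9 cytoplasmic partners of cadherins, such as the catenins, 0 were called in either direction by edgeR or DESeq2 (3 higher and 1 lower at an unadjusted p under 0.05), with a list median log2 fold change of 0.20. Jup, the catenin plakoglobin, was called higher in high against low (0.67, SE 0.15, adjusted p = 0.00384). Of 7 transcription factors known to repress Cdh1, Zeb2 (-0.89, SE 0.154, adjusted p = 7.99e-05) and Zeb1 (-0.50, SE 0.172, adjusted p = 0.044) fell, and Tcf4 (0.50, SE 0.118, adjusted p = 0.00309) and Tcf3 (0.54, SE 0.132, adjusted p = 0.00398) rose. Of 10 other genes of the cadherin superfamily, 3 rose: Clstn2, a calsyntenin (2.17, SE 0.299, adjusted p = 2.82e-06), and the desmosomal cadherins Dsc2 (1.38, SE 0.303, adjusted p = 0.00151) and Dsg2 (1.19, SE 0.312, adjusted p = 0.00715). None of them fell by edgeR, by DESeq2 or at an unadjusted p under 0.05.

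Of 20 Eph and ephrin signalling partners 6 rose and 0 fell (9 and 0 at an unadjusted p under 0.05, 6 and 0 by DESeq2), with a list median of 0.27. They included Grip1, a scaffold that binds B ephrins (0.71, SE 0.142, adjusted p = 0.000519), and the Src-family kinase Fyn (0.78, SE 0.182, adjusted p = 0.00266). The Rac inhibitor Chn2 (0.66, SE 0.155, adjusted p = 0.00301) and the lipid phosphatase Inppl1 (0.45, SE 0.146, adjusted p = 0.0304) were also among them. Itsn1 (adjusted p = 0.0489) and Tiam1 (adjusted p = 0.049) passed narrowly. In high against low 1 gene of the list was called higher and 1 lower (3.79% and 3.08% of all genes). Medium against negative had 1 higher and 0 lower (4.24% and 4.22%). Of 9 nectins and other adhesion genes, Cadm1, a nectin-like molecule, rose (273 to 339 CPM in negative and 434 to 538 in high libraries; 0.64, SE 0.107, adjusted p = 5.76e-05). Epcam, an epithelial adhesion molecule that also stands in the endoderm list, rose likewise (72.0 to 93.5 and 152 to 169 CPM; 0.96, SE 0.132, adjusted p = 2.55e-06). Lgals3, a galectin, was at 7.25 to 21.0 CPM in the negative gate and at 0 to 0.911 in the high gate (-5.56, SE 0.634, adjusted p = 7.51e-07).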

How the data were processed

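The authors deposited raw counts per gene (35976 rows, 16 columns, matched to samples by name). Their build was GRCm38 and their tools included STARsolo 2.7.9a, cutadapt 1.18 and DESeq2 1.42.0, per the submitters' processing notes. Strand setting, annotation and use of molecular identifiers are not given in sources used here, so overlapping genes are uncertain. Members and lists were chosen with earlier results of these data known. The 17 members called in any comparison (at most 8 per family) are given in every library, and a fixed set of others is described whatever its result.

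Counts were fitted with edgeR 4.0.16 (R 4.3.3): its expression filter kept 13891 genes, TMM factors ran from 0.969 to 1.05, and 1 robust quasi-likelihood model of 4 gates gave 6 comparisons, adjusted by Benjamini-Hochberg over all genes within each. All adjusted p-values come from this fit unless another is named. The SE is the fitted change over the root of its F statistic. Pairs of libraries within a gate differed beyond sampling noise (smallest chi-square per degree of freedom 4.31 over 24 pairs). Simulated data for high against negative gave back 67 of 100 genes set to change 2-fold and 94 of the 98 set to 4-fold (9 false calls among 13410).

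Other settings tried were DESeq2 1.42.0, RLE scaling, no filter, a filter of 2 CPM in 4 libraries, the replicate number as a block, thinning to 3268948 counts, only the gates compared, each library left out, and low 1 and medium 2 left out together. Positions are from GENCODE M21. The listed genes Dchs2 and Afdn were not matched by symbol.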

Additional observations from a re-analysis of the deposited data

Results flagged for a closer look

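In 16 of 152 sets of 4 libraries (38 tested members in 4 gates) 1 library lay far from the other 3 by Dixon's test; chance marks about 1 in 20 such sets. Library low 1 was above the rest of its gate for Epha5 (6.57 CPM, against 1.41 to 2.11), Efnb2 (20.6, against 12.0 to 12.5) and Pcdh8 (3.92, against 1.55 to 1.76), and low 2 for Pcdh15 (2.47, against 1.16 to 1.27). In the medium gate, medium 1 was high for Cdh11 (8.44, against 7.07 to 7.20) and low for Ephb3 (37.9, against 44.6 to 45.3). Medium 3 was high for Ephb6 (17.6, against 8.88 to 9.62) and low for Efna1 (1.72, against 2.96 to 3.14), and medium 4 high for Cdh13 (21.2, against 16.3 to 16.6). In the high gate, high 4 was high for Efnb3 (46.4, against 27.0 to 28.6), and low values were those of Cdh1 in high 3 (70.1, against 75.6 to 76.7), Cdh3 in high 1 (2.49, against 3.78 to 3.95) and Ephb6 in high 2 (9.33, against 13.8 to 14.1). In the negative gate, negative 1 was high for Ephb4 (7.43, against 6.23 to 6.43) and low for Efnb1 (17.4, against 22.1 to 22.4), and negative 4 high for Efnb3 (50.0, against 43.9 to 44.3).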

How the results depend on the processing

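Of 41 calls of a member in a comparison, 28 held in every alternative in which the gene could be tested, 13 were lost in at least 1 and 0 changed sign; DESeq2 and the replicate block lost 0, and thinning lost 4. After thinning Cdh15, Pcdh19 and Epha6 did not pass the filter on low counts and have no value, and neither does Cdh15 under the stricter filter or in a fit of the gates compared only. Counts moved over 1.5 times as follows. Members higher in low against negative (2) were 4 with no filter, 0 after thinning and 1 in a fit of those gates only. Higher in medium against low (2) were 1 with those gates only and 1 without low 1 and medium 2. Higher in high against medium (0) were 2 by DESeq2, 1 with no filter, 1 with the replicate block, 1 with those gates only and 2 without low 1 and medium 2. Lower in medium against low (2) were 1 after thinning and 1 without low 1 and medium 2. Lower in high against medium (2) were 1 after thinning, 1 with those gates only and 1 without low 1 and medium 2. In high against negative, ephrins higher (2) were 4 without low 1 and medium 2, and protocadherins lower (1) were 0 after thinning, where Pcdh19 was not tested. The cause of the other changes was not tested.

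Leaving out 1 library at a time, members in high against negative ran from 5 to 8 higher and from 5 to 9 lower, in medium against negative from 4 to 6 and 3 to 4, in low against negative from 1 to 2 higher with 1 lower throughout, in medium against low from 1 to 2 and 1 to 3, in high against medium from 0 to 2 and 0 to 2, and in high against low from 4 to 5 and 4 to 6. In high against negative, ephrins ran from 2 to 4 higher and 0 to 1 lower, cadherins from 2 to 4 lower, protocadherins from 1 to 2 lower and Eph receptors from 2 to 3 in either direction. Uncalled values were followed only for the fixed set of genes in high against negative. Among these, Pcdh1 changed sign (0.08, and from -0.11 to 0.29 with 1 library left out; -0.11 without negative 2, -0.04 without high 3, -0.05 without high 4). Efna5 did so too (0.05, and from -0.13 to 0.15; -0.01 without negative 2, -0.13 without high 4). The deviations of same-numbered libraries correlated weakly (from -0.082 to 0.216, median 0.0291, 6 of 24 over 0.1), against a median of -0.0127 and 3 of 72 over 0.1 for different numbers, and 8 of 16 libraries correlated best with their own number, a hint from the data. The sample titles list the 4 gates of each number in turn but do not say what the number stands for. As not every same-numbered pair was over 0.1, the numbers were not taken as pairs in the main fit. Whether same-numbered libraries share an origin is not known. RLE scaling moved no median of all genes by over 0.1. Members near 1 CPM rest on a few counts per library, which limits Cdh15, Cdh10, Epha6 and Pcdh19 most, and Epha2 in the high gate.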

Other observations

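Some members too low to test had uneven counts, named here after their values were seen. Cdh20, a type II cadherin, had 42, 12, 12 and 1 counts in the negative, low, medium and high gates, of which 24 came from a single library. Epha3 had 15, 11, 5 and 2, and Cdh8 had 24, 14, 9 and 4, with 22 of its 51 in 1 library. Cdh7 had 22, 22, 3 and 14. These sums carry no test.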
